A study of Arabidopsis thaliana with 14 samples.

Results

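Siliques of Aza1 in the eM3 generation (n = 4 libraries) were compared with siliques of Aza1 in the preceding eM2 generation (n = 3 libraries), which makes 7 of the 14 mRNA libraries of the series. The libraries were assigned by their titles, which number these generations eM1 and eM2, whereas the names eM2 and eM3 used here are those of the study. Aza1 is a single line in the jas-3 mutant (Col-0 background), descended from a plant grown on 5-Azacytidine at germination, so that the plants sampled were untreated offspring, and eM3 was raised by selfing diploid eM2 plants. The 4 Aza1 eM3 libraries came from different siblings of that line, so their spread covers siblings and not independently treated lines. The study raised the eM3 plants that it scored for seed abortion from 2 selected eM2 siblings. The titles do not say which parent plant each eM3 library goes back to, so a difference between such families would be part of that spread. The other groups were jas-3 plants given DMSO (n = 3), untreated jas-3 plants (n = 2) and WT plants (n = 2), so that every group except WT carried the jas-3 allele. Each library was made from 3 siliques collected 6 to 9 days after anthesis, and the titles call the libraries of the DMSO, jas-3 and WT groups biological replicates. The Aza1 libraries of both generations are titled replicates only, but a figure legend of the study counts them among its biological replicates. The titles do not say whether the Aza1 eM2 libraries came from different plants, so p-values measure the spread between these libraries.

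In seeds with an additional paternal genome the endosperm, the tissue that feeds the embryo, often fails to cellularize and the seed collapses, a response called the triploid block. Plants that carry the jas mutation make unreduced diploid pollen, so selfing produces such triploid seeds among diploid ones. 5-Azacytidine is a cytosine analogue that enters DNA and cannot be methylated, and DNA methylation keeps transposable elements (TEs) silent and marks many genes that are imprinted in the endosperm. Paternally expressed genes (PEGs) are transcribed mainly from the paternal genome in the endosperm. The comparison between generations asks which transcripts of the line changed from one generation to the next.

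The total gene count of the Aza1 libraries lay between 40784273 and 43974069, within the range of 40526464 to 43974069 of all libraries, so depth was nearly even. Among gene counts from 1 to 20, 73.7% to 79.0% were even, as when both mates of a read pair are counted, and a count may therefore hold fewer independent molecules than its size. JASON (AT1G06660), which lies on chromosome 1 at 2037311 to 2040246 and carries the jas-3 mutation, had 93, 196, 140 and 138 counts in Aza1 eM3 and 80, 109 and 87 in Aza1 eM2 siliques, with overlapping groups (log2 fold change 0.48 with a standard error, SE, of 0.27, adjusted p = 0.47, edgeR). It had 111 to 169 counts in DMSO, 188 and 225 in the untreated libraries labelled jas-3 and 14 and 14 in those labelled WT, a direction that goes against the mutant label. Whole-gene counts carry no information on the side of the mutation that the reads came from, so directions drawn from those 2 groups refer to the labels. ADM, a gene of the triploid block, had 110 and 112 counts in untreated libraries labelled jas-3 and 0 in both labelled WT. The share of gene counts on seed storage genes also differed between these groups, at 36.7% and 42.5% in WT and 7.97% and 17.0% in untreated jas-3. The part of seed stage in the ADM counts was not tested. The 8 seed storage genes, which mark the maturing embryo, accounted for 19.0%, 26.9%, 14.9% and 27.6% of all gene counts in Aza1 eM3 and for 30.7%, 21.8% and 30.1% in Aza1 eM2. The shares overlapped between the generations, and were lowest in Aza1 eM3 replicates 3 and 1. In bulk siliques, fewer cells of a type and less RNA per cell cannot be told apart.

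More genes were called up than down in Aza1 eM3, although 10949 of all genes tested were higher and 11405 lower. Of 22359 genes tested, 194 (0.868%) were called up and 14 (0.0626%) were called down, together 208 (0.93%). A call required a log2 fold change of 2 or more, up or down, with a Benjamini-Hochberg adjusted p below 0.01 in the quasi-likelihood test of edgeR. The log2 fold change of the genes called up ranged from 2.01 to 6.01 with a median of 2.80, against a median of −0.01 over all genes tested. In scaled counts, all 194 genes had every Aza1 eM3 library above every Aza1 eM2 library, a separation shown by 9.48% of the genes tested, and all 14 had every Aza1 eM3 library below, shown by 6.62%. At an unadjusted p under 0.05, 3235 genes (14.5%) passed, 2076 of them higher in Aza1 eM3 and 1159 lower. The genes called up lay on every chromosome, at 0.770% to 0.961% of the genes tested on each.

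**Figure D1:**
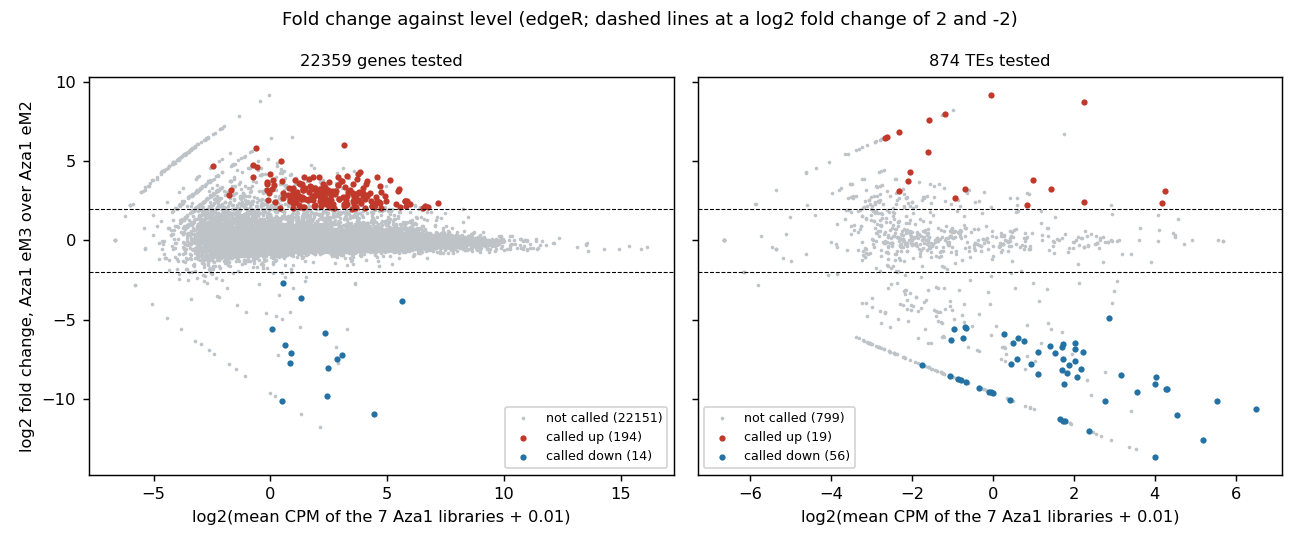
Fold change of Aza1 eM3 over Aza1 eM2 (log2, vertical axis) against the mean level of the 7 Aza1 libraries (log2 of CPM, horizontal axis) for 22359 genes on the left and 874 TEs on the right. Each point is a gene or TE, the 194 genes and 19 TEs called up lie above the upper dashed line, and the 14 genes and 56 TEs called down lie below the lower one.

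The genes called up were genes that the jas-3 controls also expressed and that the libraries labelled WT hardly expressed. Those WT libraries also stood apart in seed stage, with LEC1, a regulator of the embryo, at 67 and 32 counts against 1766 to 3867 in DMSO and untreated jas-3, KNOLLE, a gene of cytokinesis, at 72 and 19 counts against 2890 to 7135, and seed storage shares of 36.7% and 42.5%, and the part of this in their low values was not tested. The summed level of the genes called up was 5315, 2249, 4424 and 2472 CPM (counts scaled to library size, per 1e+06) in Aza1 eM3, against 519, 654.9 and 649.4 CPM in Aza1 eM2. It was 6251, 4611 and 3387 CPM in DMSO, 4110 and 4480 CPM in untreated libraries labelled jas-3, and 31.99 and 51.39 CPM in those labelled WT. Relative to the DMSO mean, the Aza1 eM3 libraries stood at 112%, 47.4%, 93.1% and 52.0%, and the Aza1 eM2 libraries at 10.9%, 13.8% and 13.7%. Replicates 1 and 3 of Aza1 eM3 were thus near the DMSO level, and replicates 2 and 4 lay well below it. This order within Aza1 eM3, with replicates 1 and 3 both above replicates 2 and 4, held for 177 of the 194 genes and for 5415 of all 22359 genes tested. The 2 libraries with the higher levels were also those with the lower share of seed storage transcripts. A fit with that share as a covariate is given below, and the cause of the order was not tested. In single genes, 180 of the 194 had a DMSO mean above the Aza1 eM3 mean, 186 had a mean under 1 CPM in the libraries labelled WT, and 69 had 0 counts in both of these.

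**Figure D2:**
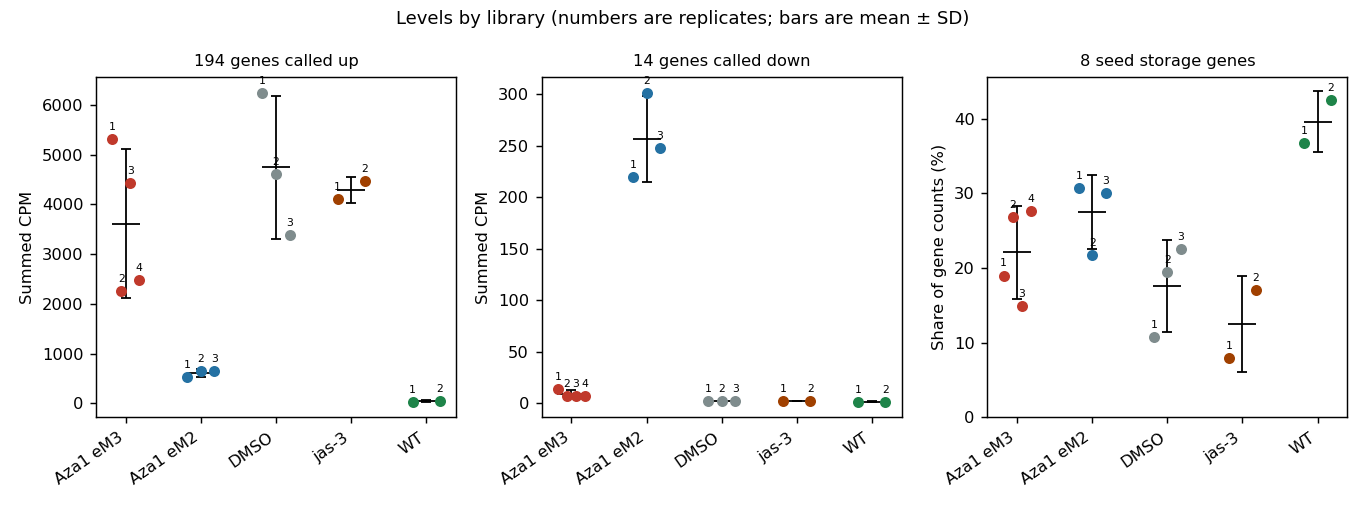
Summed level in CPM of the 194 genes called up (left) and the 14 genes called down (middle), and share of gene counts on 8 seed storage genes in percent (right), with 1 point per library labelled by its replicate number and bars for the mean and SD of each group. Genes called up sit between 2249 and 5315 CPM in the 4 Aza1 eM3 libraries and between 519 and 654.9 CPM in the 3 Aza1 eM2 libraries, whereas the seed storage shares of the generations overlap.

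The number of genes called up, and its balance against those called down, changed with the fit. A fit of the 7 Aza1 libraries alone gave 0 genes called up and 3 called down, although 3446 genes passed an unadjusted p under 0.05, and DESeq2 called 371 up and 28 down, all 194 and all 14 among them. Leaving out 1 library gave 5, 3 or 16 genes called up and 13, 9 or 11 called down without Aza1 eM2 replicate 1, 2 or 3, and 92 or 55 called up without Aza1 eM3 replicate 1 or 3. Without Aza1 eM3 replicate 2 or 4 the number was 250 or 213. With the seed storage share as a covariate, 162 genes were called up, 138 of them among the 194, and 16 were called down.

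Among the 12 genes called up with the smallest adjusted p, the most abundant was AT2G44250 (chromosome 2, 18293457 to 18295536), which encodes a protein with a DUF239 domain. It had 12479, 5779, 14479 and 7309 counts in Aza1 eM3 and 1321, 2099 and 1561 in Aza1 eM2 siliques (log2 fold change 2.39, SE 0.29, adjusted p = 0.0022, edgeR). In DMSO it had 13977, 10595 and 8644 counts, and in the libraries labelled WT 32 and 17 counts. Of all 36 genes tested with a DUF239 product name, a group picked after the values had been seen, 6 were called up (16.7%, against 0.868% of all genes tested). The smallest adjusted p belonged to AT1G24130 (chromosome 1, 8534183 to 8535430), a WD40 repeat gene on the study's list of PEGs. It had 192, 128, 260 and 134 counts in Aza1 eM3 and 22, 26 and 26 in Aza1 eM2 siliques (log2 fold change 2.64, SE 0.23, adjusted p = 0.00052). The actin gene ACT9 (AT2G42090) had 1081, 311, 658 and 394 counts in Aza1 eM3 and 53, 22 and 42 in Aza1 eM2 siliques (log2 fold change 3.72, SE 0.45). In all 3 genes the DMSO counts lay within the range of the Aza1 eM3 counts.

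The other genes of this group covered several protein classes. The MYB family gene MYB22 (AT5G40430) had 386, 233, 391 and 183 counts in Aza1 eM3 and 54, 59 and 62 in Aza1 eM2 siliques. The kelch repeat gene AT5G48980 had 1203, 466, 1000 and 529 counts in Aza1 eM3 and 108, 130 and 136 in Aza1 eM2 siliques. The jacalin lectin gene AT3G59590, which belongs to a family of sugar-binding proteins, had 455, 210, 386 and 172 counts in Aza1 eM3 and 37, 59 and 44 in Aza1 eM2 siliques. In each of these genes replicates 1 and 3 of Aza1 eM3 were the highest libraries. The genes AT3G21170 and AT2G26050, an F-box gene and a gene with a DUF1644 domain, had 157 to 265 and 158 to 383 counts in Aza1 eM3, against 28 to 36 and 20 to 30 counts in Aza1 eM2. AT1G66000, a gene with a DUF577 domain, had 70, 24, 63 and 45 counts in Aza1 eM3 and 1, 2 and 2 in Aza1 eM2 siliques (log2 fold change 4.63, SE 0.50). The thionin family gene AT2G20605 had 190, 40, 112 and 73 counts in Aza1 eM3 and 4, 2 and 2 in Aza1 eM2 siliques (log2 fold change 5.01, SE 0.60). AT2G20605 and the S1 family gene AT5G06020 lie wholly within annotated TEs, and the counts do not tell which feature the reads came from.

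The gene with the largest log2 fold change was an exception to the pattern in the controls. AT2G05915 (chromosome 2, 2263816 to 2264265), of unknown function, had 194, 959, 1194 and 402 counts in Aza1 eM3 and 24, 3 and 0 in Aza1 eM2 siliques (log2 fold change 6.01, SE 0.90, adjusted p = 0.0041, edgeR). It had 90, 129 and 68 counts in DMSO, 162 and 160 in untreated libraries labelled jas-3 and 42 and 19 in those labelled WT, so that every Aza1 eM3 library stood above every other library. Other genes with large changes were low in Aza1 eM2 and overlapped with or lay below DMSO in Aza1 eM3. AT4G32080, of unknown function, had 80, 18, 70 and 32 counts in Aza1 eM3, against 0, 2 and 0 in Aza1 eM2 and 88, 58 and 35 in DMSO. The F-box gene AT3G62350 had 86, 31, 51 and 15 counts in Aza1 eM3, against 0, 2 and 2 in Aza1 eM2 and 72, 60 and 72 in DMSO. AT4G15755, which encodes a calcium-dependent lipid-binding protein, had 2157, 380, 1252 and 633 counts in Aza1 eM3, against 66, 54 and 20 in Aza1 eM2 and 2363, 1131 and 689 in DMSO. The F-box gene AT1G51290 had 38 to 119 counts in Aza1 eM3 and 2 to 4 counts in Aza1 eM2.

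Type I MADS-box genes, a class of transcription factors with members that act in the female gametophyte and the early endosperm, were higher as a group. Of 26 genes listed, 19 passed the filter on low counts, and 4 of these (21.1%, against 0.868% of all genes tested) were called up and none down. The median log2 fold change of the 19 was 4.02, or 3.17 with the 3 genes at 0 in Aza1 eM2 set to their lower bound, against −0.01 over all genes tested. All 19 were higher in Aza1 eM3, and in 12 the groups did not overlap (9.48% over all genes tested). Some of the 19 were near 0 in both generations. AGL90 and AGL48 had 0, 0, 7 and 0 and 0, 0, 10 and 2 counts in Aza1 eM3 and 0 in every Aza1 eM2 library. They reached 28 and 56 counts in the DMSO and untreated jas-3 libraries. The median was 3.168 over 25 genes without a filter, and 1.514 over the 2 genes with at least 10 counts in every library. AGL92 (AT1G31640) had 975, 374, 930 and 648 counts in Aza1 eM3 and 54, 30 and 28 in Aza1 eM2 siliques (log2 fold change 4.07, SE 0.41, adjusted p = 0.00089, edgeR). Its neighbour AGL86 (AT1G31630) had 791, 150, 831 and 495 counts in Aza1 eM3 and 32, 49 and 10 in Aza1 eM2 siliques (log2 fold change 4.02, adjusted p = 0.0045). AGL91 (AT3G66656) and AGL102 (AT1G47760) had 77 to 297 and 96 to 470 counts in Aza1 eM3, against 6 to 22 and 28 to 36 counts in Aza1 eM2. The number called up was 11 with DESeq2, 0 with the Aza1 libraries alone in the fit, and 1 to 7 when 1 library was left out. AGL62, known for holding back cellularization of the endosperm, had 38, 9, 44 and 25 counts in Aza1 eM3 and 18, 29 and 6 in Aza1 eM2 siliques (log2 fold change 0.53, adjusted p = 0.76). AGL80, which acts in the central cell, was also close to level, with 250 to 368 counts in Aza1 eM3 and 198 to 276 in Aza1 eM2.

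PHERES1 (PHE1, AT1G65330, chromosome 1, 24266481 to 24267320), the paternally expressed MADS-box gene, had 789, 163, 1065 and 279 counts in Aza1 eM3 and 22, 48 and 8 in Aza1 eM2 siliques. The groups did not overlap, but the spread within Aza1 eM3 was wide and the gene narrowly missed the threshold (log2 fold change 4.23, SE 0.77, adjusted p = 0.012, edgeR). It had 1993, 571 and 525 counts in DMSO, 1831 and 896 in untreated libraries labelled jas-3 and 0 and 0 in those labelled WT. Its paralogue PHE2 (AT1G65300) followed the same order of libraries, with 953, 191, 1336 and 241 counts in Aza1 eM3 and 21, 39 and 12 in Aza1 eM2 siliques (log2 fold change 4.57, adjusted p = 0.014). Windows of 100 bases of this pair were unique in the genome for 97.2%, so reads could mostly be told apart.

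The other PEGs known to take part in the triploid block did not move together. SUVH7 (AT1G17770), which encodes a putative histone methyltransferase, was called up, with 212, 98, 173 and 154 counts in Aza1 eM3 and 30, 34 and 34 in Aza1 eM2 siliques (log2 fold change 2.09, SE 0.25, adjusted p = 0.0026, edgeR). ADMETOS (ADM, AT4G11940), a chaperone-like PEG, had 96, 81, 87 and 89 counts in Aza1 eM3 and 14, 30 and 21 in Aza1 eM2 siliques. It passed the p threshold and missed that on fold change (log2 fold change 1.87, SE 0.24, adjusted p = 0.0031). It passed the lower 2-fold threshold that the results of the study give. Its Aza1 eM3 libraries differed little from each other, unlike those of PHE1. PEG2 (AT1G49290) had 6, 4, 12 and 4 counts in Aza1 eM3 and 6, 17 and 12 in Aza1 eM2, and PEG9 (AT5G15140) had 266, 98, 162 and 118 counts in Aza1 eM3 and 184, 140 and 242 in Aza1 eM2. Neither passed the test (log2 fold changes −1.02 and −0.46, adjusted p = 0.46 and 0.53), and the generations overlapped in both. Of these 6 PEGs, PHE1 and PHE2 included, 3 were called up with DESeq2 or without Aza1 eM3 replicate 2. None was called without Aza1 eM2 replicate 1, 2 or 3, without Aza1 eM3 replicate 1, or with the Aza1 libraries alone.

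**Figure D3:**
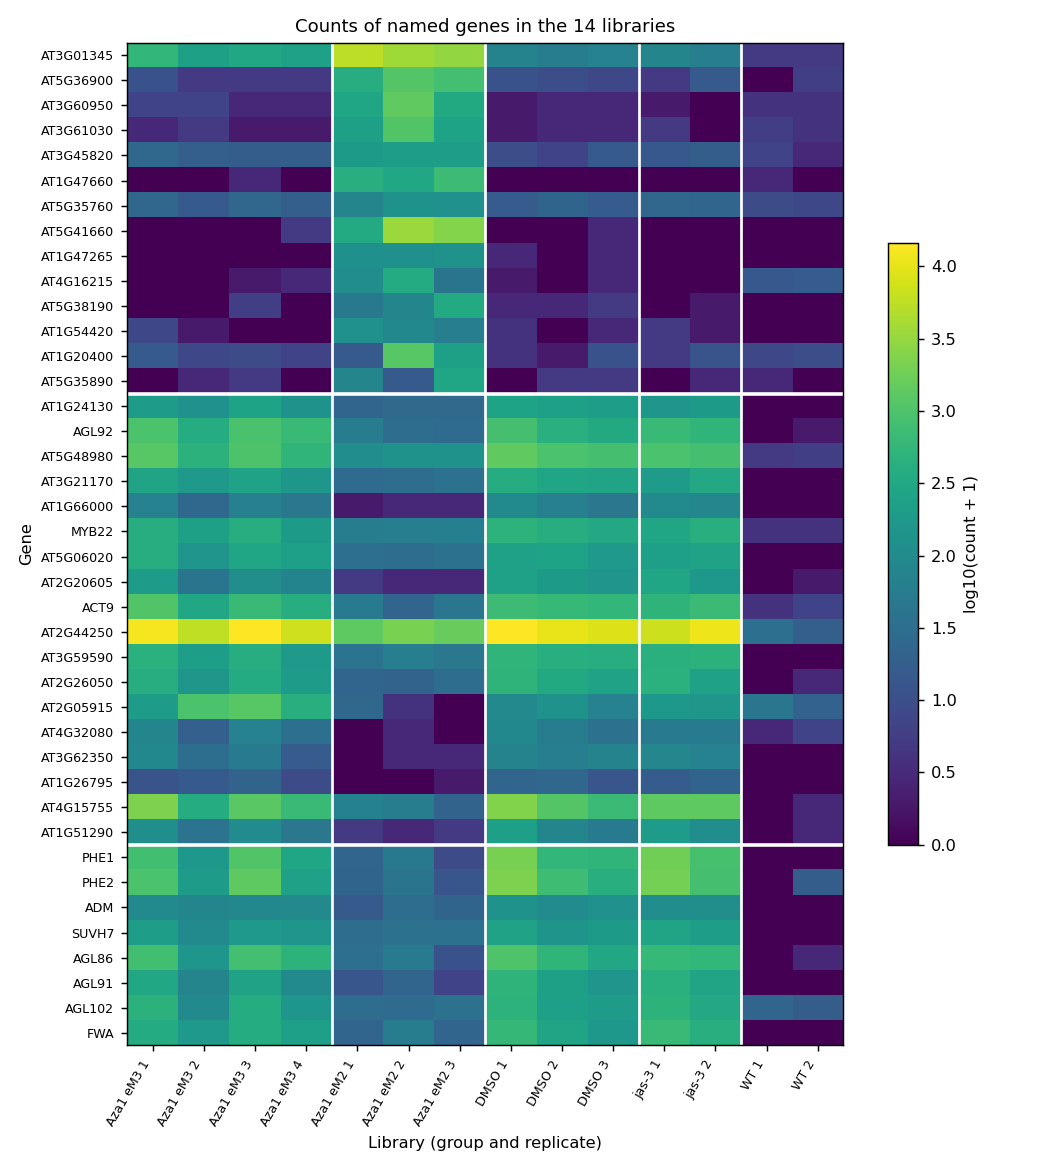
Counts of 40 named genes (rows) in the 14 libraries (columns), as the log10 of the count plus 1, with genes called down in the top block, genes called up in the middle block and imprinted and MADS-box genes in the bottom block. Genes of the lower blocks are brighter in the 4 Aza1 eM3, 3 DMSO and 2 jas-3 libraries than in the 3 Aza1 eM2 libraries, and genes of the top block are brightest in Aza1 eM2, for example AT3G01345 with 5542, 3760 and 3038 counts there.

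Of 244 distinct PEG identifiers read from a supplementary list of the study, 240 were found in the files and 229 were tested. Among these, 20 were called up (8.73%, against 0.868% of all genes tested) and none down, and their median log2 fold change was 0.13. The number called up was 2, 3 or 6 without Aza1 eM2 replicate 1, 2 or 3, 9 without Aza1 eM3 replicate 1 or 3, 0 with the Aza1 libraries alone and 35 with DESeq2. The summed level of the list was 5297, 5014, 5139 and 5038 CPM in Aza1 eM3 and 4592, 4590 and 4621 CPM in Aza1 eM2. The generations did not overlap in it, and DMSO lay at 5613, 5027 and 5190 CPM. AT1G61320, which encodes a leucine-rich repeat protein with an FBD domain, had 3037, 1010, 2479 and 1184 counts in Aza1 eM3 and 173, 192 and 239 in Aza1 eM2 siliques (log2 fold change 3.03, SE 0.37). The cytochrome P450 gene CYP71B25 (AT3G26270) had 310, 151, 276 and 272 counts in Aza1 eM3 and 22, 12 and 36 in Aza1 eM2 siliques (log2 fold change 3.21, SE 0.39). AT3G50730, AT5G54350 and AT4G23110, annotated as a protein kinase, a C2H2 zinc finger protein and an insulin-like growth factor binding protein, had log2 fold changes of 2.43, 2.42 and 2.07.

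Of 16 endosperm genes listed, only FWA was called up (6.25%, against 0.868% of all genes tested), and it lost the call without any 1 of the 3 Aza1 eM2 libraries, without Aza1 eM3 replicate 1 or 3 and with the Aza1 libraries alone. FWA (AT4G25530), an imprinted homeodomain gene silenced by DNA methylation outside the endosperm, had 362, 170, 379 and 224 counts in Aza1 eM3 and 22, 54 and 22 in Aza1 eM2 siliques (log2 fold change 2.94, SE 0.44, adjusted p = 0.0046, edgeR). The list had a median log2 fold change of 0.71, with 14 of 16 genes higher and 7 without overlap (9.48% over all genes tested). HDG9 and HDG3, also of the homeodomain class, had log2 fold changes of 1.47 and 1.696 (adjusted p = 0.0079 and 0.033). Both were below the threshold on fold change, and HDG3 also missed that on p. HDG3 was abundant, with 13975, 9567, 13151 and 8972 counts in Aza1 eM3 and 2378, 2823 and 3947 in Aza1 eM2 siliques. ZOU, which drives the breakdown of the endosperm, had 954 to 1126 counts in Aza1 eM3 and 509 to 862 in Aza1 eM2, and EPR1, which encodes a proline-rich extensin of the cell wall, had 110563 to 343854 counts in Aza1 eM3 and 158810 to 228003 in Aza1 eM2 (log2 fold changes 0.58 and 0.12, adjusted p = 0.15 and 0.93). The endosperm list as a sum was dominated by EPR1 and overlapped between the generations, at 3006 to 9201 CPM in Aza1 eM3 and 4661 to 6530 CPM in Aza1 eM2.

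The genes called up were also counted by gene family, against 0.868% called up over all genes tested. F-box proteins, which select the targets of SCF ubiquitin ligases, had 31 of 379 tested genes called up (8.18%) with a median log2 fold change of 0.41. The S1 family, small secreted proteins named after the self-incompatibility proteins of poppy, had 5 of 30 called up (16.7%) with a median of 1.71. Of these 5, AT5G06020 had 388, 148, 276 and 225 counts in Aza1 eM3 and 32, 30 and 35 in Aza1 eM2 siliques (log2 fold change 2.79, SE 0.31), and AT1G26795 had 11, 14, 20 and 8 counts in Aza1 eM3 and 0, 0 and 1 in Aza1 eM2 siliques. The other S1 genes called up, AT1G26796, AT1G26798 and AT1G26799, lie beside AT1G26795. Zinc finger genes had 10 of 451 called up (2.22%) and defensin-like or cysteine-rich genes 4 of 350 (1.14%). Among groups picked after the values had been seen, SKP1-like or cullin genes, further parts of SCF ligases, had 4 of 26 called up, nuclear factor Y subunit C genes had 3 of 13, kelch repeat genes had 6 of 94 and RING or U-box genes had 11 of 386. No gene of these families was called down, against 14 of all 22359 genes tested (0.0626%). Without Aza1 eM2 replicate 1, 2 or 3 the F-box genes called up numbered 0, 0 and 3 and the S1 genes 0, 0 and 1, without Aza1 eM3 replicate 1 or 3 they numbered 15 and 7 and 3 and 2, and with the Aza1 libraries alone both were 0.

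**Figure D4:**
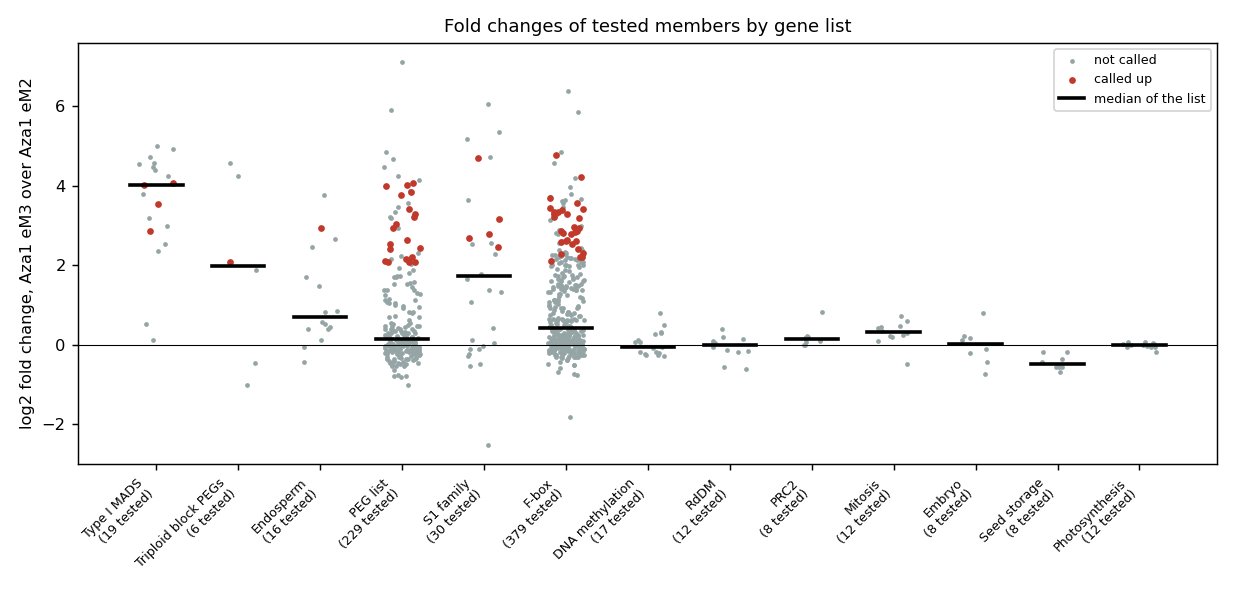
Log2 fold change of Aza1 eM3 over Aza1 eM2 (vertical axis) of the tested members of 13 gene lists, with 1 point per gene, red points for genes called up and a black bar for the median of each list. The medians are 4.02 for type I MADS-box genes and 1.71 for the S1 family. Lists with no red point include DNA methylation with a median of −0.05, PRC2 with 0.14, mitosis with 0.317 and seed storage with −0.491.

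No gene of the silencing machinery was called, but with 0.93% of all genes tested called, lists this short would seldom hold any. Among 17 genes that write, remove or read DNA methylation, the median log2 fold change was −0.05. At an unadjusted p under 0.05 (edgeR, 14.5% of all genes tested), 4 of these 17 passed. So did 3 of 12 genes of RNA-directed DNA methylation and 1 of 8 of Polycomb repressive complex 2. VIM2, which binds methylated CG sites and helps to maintain them, had 1718, 1754, 1850 and 1900 counts in Aza1 eM3 and 748, 1069 and 970 in Aza1 eM2 siliques (log2 fold change 0.80, adjusted p = 0.032, edgeR), with only 36.2% of its windows of 100 bases unique in the genome, so that reads of near copies cannot be told apart in full. CMT3, the methyltransferase of CHG sites, had a log2 fold change of 0.50 (adjusted p = 0.18). None of 12 genes of RNA-directed DNA methylation was called (median −0.01), with AGO4, the Argonaute of that pathway, at a log2 fold change of −0.57 (adjusted p = 0.052) and NRPD1, the largest subunit of RNA polymerase IV, at 0.40 (adjusted p = 0.11). Of the 8 genes of Polycomb repressive complex 2, which sets the silent state of imprinted genes in the endosperm, none was called (median 0.14), and FIS2 came closest with 331, 229, 189 and 266 counts in Aza1 eM3 and 100, 116 and 163 in Aza1 eM2 (log2 fold change 0.83, adjusted p = 0.14).

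Lists for seed stage and other tissues held no called gene, but at 0.93% called of all genes tested, lists this short would seldom hold any. Of 12 seed maturation genes, 6 had an unadjusted p under 0.05 (edgeR, 14.5% of all genes tested). The generations did not overlap in 4 of the 12 that were lower and 2 that were higher in Aza1 eM3 (6.62% and 9.48% of all genes tested). All 8 seed storage genes were lower in Aza1 eM3 (median log2 fold change −0.49), with adjusted p of 0.48 or more. LEC2, a regulator of embryo identity, had 600, 528, 557 and 554 counts in Aza1 eM3 and 197, 274 and 250 in Aza1 eM2 (log2 fold change 1.05, SE 0.15, adjusted p = 0.0031, edgeR), below the threshold on fold change. LEC1, which acts with it, had 2314 to 2764 counts in Aza1 eM3 and 1079 to 1381 in Aza1 eM2 (log2 fold change 0.80, adjusted p = 0.065). Of 12 genes of mitosis and cytokinesis, 11 were higher (median 0.32), and their sum was 255 to 308 CPM in Aza1 eM3, 163 to 260 CPM in Aza1 eM2, 185 to 338 CPM in the DMSO libraries and those labelled jas-3, and 6.03 and 12.8 CPM in those labelled WT. The cell cycle kinase gene CDKB1;1 had a log2 fold change of 0.72 (adjusted p = 0.079). F3H, an enzyme of flavonoid synthesis in the seed coat, had a log2 fold change of −0.84 (adjusted p = 0.043), and TTG2, a WRKY factor of the seed coat, had −0.56 (adjusted p = 0.063). The auxin synthesis gene YUC4 had a log2 fold change of −0.70 (adjusted p = 0.23), and the pollen gene PPME1 had −0.65 (adjusted p = 0.42). The photosynthesis genes of the green silique wall had a median of −0.01, the clock genes −0.08, the pollen markers −0.515, the embryo markers 0.01, the auxin synthesis genes −0.17, the maturation genes −0.31 and the seed coat lists 0.01 each. Apart from the fit with the seed storage share as a covariate, the part of these markers in the result was not tested.

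The 14 genes called down were genes switched on in Aza1 eM2 and low elsewhere. Their summed level was 14.4, 7.20, 7.19 and 7.32 CPM in Aza1 eM3 and 220, 302 and 248 CPM in Aza1 eM2, with 2.28 to 2.84 CPM in DMSO, 2.46 and 2.70 CPM in untreated libraries labelled jas-3 and 1.63 and 1.87 CPM in those labelled WT. Of the 14, 9 had no assigned function (64.3%), against 13 of the 194 genes called up (6.70%). The most abundant was AT3G01345 (chromosome 3, 129138 to 130749), of unknown function, with 566, 235, 304 and 236 counts in Aza1 eM3 and 5542, 3760 and 3038 in Aza1 eM2 siliques (log2 fold change −3.83, SE 0.29, adjusted p = 0.00013, edgeR). Its Aza1 eM3 libraries remained above the 56 to 80 counts of DMSO and the libraries labelled jas-3. AT5G36900, also of unknown function, had 10, 4, 4 and 4 counts in Aza1 eM3 and 396, 1096 and 816 in Aza1 eM2 siliques (log2 fold change −7.25, SE 0.53, adjusted p = 0.00013).

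Several of these genes were at or near 0 in every Aza1 eM3 library. AT5G41660 had 0, 0, 0 and 4 counts in Aza1 eM3 and 346, 3384 and 2410 in Aza1 eM2 siliques. AT1G47265 had 0 counts in all 4 Aza1 eM3 libraries and 121, 122 and 130 in Aza1 eM2 siliques, at least 39-fold lower against a floor of 3 counts per library. AT1G47660 had 0, 0, 2 and 0 counts in Aza1 eM3 and 402, 309 and 717 in Aza1 eM2 siliques. These 3 genes had at most 2 counts in each of the 7 control libraries. AT3G45820, of unknown function, and AT5G35760, annotated as beta-galactosidase related, fell less far, with 16 to 24 and 14 to 23 counts in Aza1 eM3 and 182 to 215 and 77 to 131 counts in Aza1 eM2 (log2 fold changes −3.64 and −2.70). AT3G60950 and AT3G61030 had 2 to 6 and 1 to 4 counts in Aza1 eM3, against 286, 1418 and 342 and 232, 1092 and 261 in Aza1 eM2 siliques. This pair is nearly identical, only 3.05% and 3.45% of their windows of 100 bases being unique in the genome, so their counts may describe 1 locus.

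Other genes called down varied among the Aza1 eM2 libraries. AT1G20400, a gene with a DUF1204 domain, had 14, 7, 8 and 6 counts in Aza1 eM3 and 14, 1216 and 231 in Aza1 eM2 siliques, and AT5G35890, also annotated as beta-galactosidase related, had 0, 2, 4 and 0 counts in Aza1 eM3 and 78, 14 and 294 in Aza1 eM2 siliques. AT4G16215 had 0, 0, 1 and 2 counts in Aza1 eM3 and 110, 367 and 41 in Aza1 eM2 siliques, with 13 and 15 counts in the libraries labelled WT. AT5G38190 and AT1G54420 had at most 5 and 7 counts in any Aza1 eM3 library, and 47, 79 and 345 and 124, 88 and 59 in Aza1 eM2 siliques. The number called down was 9 without Aza1 eM2 replicate 2 and 10 to 13 without any other single library.

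More TEs were called down than up among those away from genes. Of 874 TEs tested among the 19524 that lie 500 bases or more from any gene, 56 were called down (6.41%) and 19 were called up (2.17%), under the thresholds and library scaling used for genes. The 56 TEs called down lie at 44 loci when those within 5000 bases are joined, and the 19 called up at 16 loci. Every Aza1 eM3 library was below every Aza1 eM2 library in 50 of the 56 TEs (16.1% of the TEs tested) and above in all 19 called up (14.3%). At an unadjusted p under 0.05, 379 TEs (43.4%) passed, 245 lower and 134 higher in Aza1 eM3. The filter on low counts works by group, so TEs expressed only in Aza1 eM2 could enter the test. Of the 56 called down, 53 stayed under 10 counts in all libraries outside that generation. The shares given here, and those by superfamily below, thus hold only for TEs that passed this filter. When all libraries had to reach 10 counts, 142 TEs were left, with 18 at an unadjusted p under 0.05 and none called down. The biological coefficient of variation of the 874 TEs tested was 0.697, against 0.247 for genes, so TE levels varied more between libraries of a group.

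Summed over all 19524 TEs, the level was 1245, 1192, 1065 and 1022 CPM in Aza1 eM3 and 2475, 2505 and 2486 CPM in Aza1 eM2. The means of 1131 and 2489 CPM differed by −1358 CPM with no overlap (exact permutation test, two-sided, p = 0.057, the smallest p that 4 against 3 libraries allow). Aza1 eM3 replicates 1 and 2 lay above every control library and replicates 3 and 4 within their range, the controls having 1051 to 1079 CPM in DMSO, 1081 and 1183 CPM in untreated libraries labelled jas-3 and 916 and 1107 CPM in those labelled WT. The 56 TEs called down summed to 2.18, 3.40, 2.002 and 1.68 CPM in Aza1 eM3 and to 966, 971 and 954 CPM in Aza1 eM2. They summed to at most 1.302 CPM in any DMSO library or library labelled jas-3, and to 8.97 and 6.84 CPM in those labelled WT. Of the 56, 53 had under 10 counts in every library outside Aza1 eM2, and 15 had 0 counts in all 4 Aza1 eM3 libraries. Their median log2 fold change was −8.39, or −6.93 with those 15 at their lower bound.

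The number of TEs called down depended on the libraries used. With all TEs in the test, including those near or within genes, 113 were called up and 90 down, so that the balance turned. Among TEs away from genes, the number called down was 18, 24, 19 or 26 without Aza1 eM3 replicate 1, 2, 3 or 4, and 180 without Aza1 eM2 replicate 2, against 50 and 57 without Aza1 eM2 replicate 1 and 3. With only the 7 Aza1 libraries in the fit 61 TEs were called down, 48 of them among the 56, and DESeq2 called 52, of which 40 were among the 56.

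The superfamily with the largest difference in summed CPM was En-Spm, also called CACTA. These DNA transposons are bounded by short inverted repeats whose first bases, CACTA, give them their name, and a transposase binds near both ends to excise the element. Among 711 En-Spm TEs away from genes, 17 of 85 tested were called down and none up, against 6.41% and 2.17% of all TEs tested. The 711 En-Spm TEs summed to 18.5, 39.2, 13.1 and 13.6 CPM in Aza1 eM3 and 720, 889 and 685 CPM in Aza1 eM2. This difference was far beyond the spread within either generation. DMSO libraries had 9.73 to 14.1 CPM, the libraries labelled jas-3 13.3 and 15.3 CPM, and those labelled WT 71.9 and 133 CPM. By family, 8 of 17 tested ATENSPM5, 6 of 20 ATENSPM6, 2 of 17 ATENSPM9 and 1 of 5 ATENSPM1 elements were called down. The number of En-Spm TEs called down was 21 with DESeq2, 15 with the Aza1 libraries alone in the fit and 7 to 48 when 1 library was left out. When all libraries had to reach 10 counts, 5 En-Spm TEs were left and none was called.

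The ends of the 17 En-Spm TEs called down are shown for 5 of them because they display the repeat that these elements share. Each line gives the first 30 bases of 1 end, read from the end inwards from the TAIR10 sequence in RefSeq, the left end on the forward strand and the right end on the reverse strand, and capitals mark CACTACAAGAAAA. AT3TE57395 (ATENSPM6) spans chr3:13979547-13988266, AT2TE17600 (ATENSPM6) chr2:4162311-4169555, AT3TE69350 (ATENSPM9) chr3:17106151-17115098, AT1TE60180 (ATENSPM9) chr1:18154505-18163494 and AT2TE20220 (ATENSPM5) chr2:4910286-4919074.
AT3TE57395 left end: CACTACAAGAAAAcaggagataaacgactt
AT3TE57395 right end: CACTACAAGAAAAcaggtaaaagacaatta
AT2TE17600 left end: CACTACAAGAAAAcaggtaaacgacgacta
AT2TE17600 right end: CACTACAAGAAAAcaggtgattgacgacct
AT3TE69350 right end: CACTACAAGAAAAttgtcatttaccgacta
AT1TE60180 left end: aCACTACAAGAAAActgttaaatacccact
AT2TE20220 left end: taacgcctatcCACTACAAGAAAAcatgtg

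The run CACTACAAGAAAA is the longest that all 17 En-Spm TEs called down hold in the first 30 bases of at least 1 end, read inwards, so its presence in each of them was fixed by this choice. It occurred at both ends in 5 of the 17. In the same window at 1 end or both, it occurred in 35 of 84 En-Spm TEs tested that are long enough (41.7%), in 72 of 681 such En-Spm TEs away from genes (10.6%), and in 72 of 18548 TEs of any kind (0.388%). These shares describe the elements, with no test.

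AT1TE60180 had 6, 12, 2 and 2 counts in Aza1 eM3 and 4989, 12647 and 7547 in Aza1 eM2 siliques (log2 fold change −10.65, SE 1.095, adjusted p = 0.00033, edgeR). AT3TE69350, which lies 531 bases from the nearest gene, had 4, 4, 2 and 6 counts in Aza1 eM3 and 1199, 8967 and 3158 in Aza1 eM2 siliques (log2 fold change −10.13, SE 0.92, adjusted p = 0.00019). AT2TE20220 had 3, 3, 2 and 0 counts in Aza1 eM3 and 437, 461 and 217 in Aza1 eM2 siliques (log2 fold change −7.63, SE 0.82, adjusted p = 0.00034). All 3 had at most 14 counts in each of the 7 control libraries, and only 67.8%, 67.1% and 53.3% of their windows of 100 bases are unique, so reads from other copies of their families cannot be told apart in full. AT3TE57395, chosen here for its ends, had 0 counts in all 4 Aza1 eM3 libraries and in all 7 control libraries and 152, 482 and 244 in Aza1 eM2 siliques, at least 59-fold lower. Over all 56 TEs called down, a median of 90.7% of windows was unique.

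Retrotransposons of the Gypsy superfamily came next. Their 3732 members away from genes summed to 81.1, 154, 62.3 and 67.9 CPM in Aza1 eM3 and 367, 318 and 431 CPM in Aza1 eM2, with 59.3 to 81.5 CPM in the controls. Of 163 tested, 15 were called down and 2 up, against 6.41% called down of all TEs tested. Of those called down, 11 were ATHILA2 elements (39 tested), which belong to a family concentrated around the centromeres. The 3084 MuDR elements, DNA transposons related to Mutator of maize, summed to 97.4, 92.1, 73.0 and 82.0 CPM in Aza1 eM3 and 259, 289 and 209 CPM in Aza1 eM2, with 14 of 136 tested called down and 2 up. All 4 tested ATMU11 elements were among those called down. The 1125 Copia elements summed to 143, 149, 149 and 128 CPM in Aza1 eM3 and 350, 305 and 351 CPM in Aza1 eM2, with 8 of 94 called down and 2 up. In each of these superfamilies the generations did not overlap in summed level. When 1 library was left out, 3 to 67 Gypsy, 3 to 27 MuDR and 4 to 15 Copia elements were called down, the highest numbers without Aza1 eM2 replicate 2. LINE elements of the L1 class did not overlap either, with 66.7 to 88.3 CPM in Aza1 eM3 and 102, 101 and 203 CPM in Aza1 eM2, and 3 of 85 were called up and none down.

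Some TEs were active in only a part of the Aza1 eM2 libraries, as a few examples chosen after their values had been seen show. ENDOVIR1 (AT5TE63610, chromosome 5, 17596759 to 17605846), a Copia-type element, was high in every Aza1 eM2 library, with 0 counts in all 4 Aza1 eM3 libraries and 1014, 1175 and 2092 in Aza1 eM2 siliques, at least 377-fold lower. The ATCOPIA11 element AT3TE64435 had 0, 0, 2 and 0 counts in Aza1 eM3 and 4846, 2 and 4492 in Aza1 eM2 siliques. The ATENSPM6 element AT1TE55320 had 0, 2, 0 and 2 counts in Aza1 eM3 and 2149, 6 and 3811 in Aza1 eM2 siliques. Replicate 2 of Aza1 eM2 lacked both. Of the 56 TEs called down, 49 had 10 counts or more in all 3 Aza1 eM2 libraries, and 7 had them in replicates 1 and 3 alone. The SADHU element AT3TE60310, of a family of retroposons, was 1 of these 7, with 4, 2, 4 and 0 counts in Aza1 eM3, 1246, 0 and 1025 in Aza1 eM2 siliques, and 221 and 135 counts in the libraries labelled WT.

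**Figure D5:**
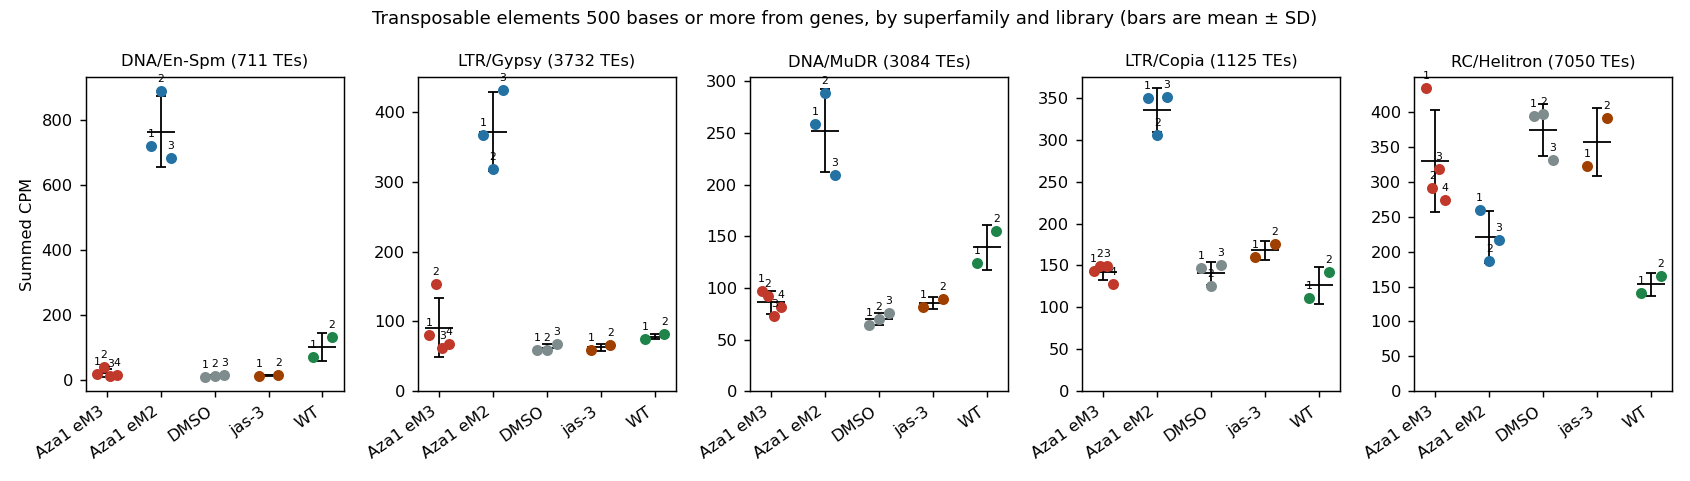
Summed level in CPM of TEs lying 500 bases or more from genes in each library, for En-Spm, Gypsy, MuDR, Copia and Helitron elements from left to right, with 1 point per library labelled by its replicate number and bars for the mean and SD of each group. Aza1 eM3 lies at 13.1 to 39.2 CPM and Aza1 eM2 at 685 to 889 CPM for En-Spm elements, and the order of the generations is the other way round for Helitrons, at 274 to 435 CPM in Aza1 eM3 and 186 to 260 CPM in Aza1 eM2.

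Helitrons, DNA elements that move by rolling-circle replication, were higher in Aza1 eM3 in summed level, unlike En-Spm, Gypsy, MuDR and Copia elements. Their 7050 members summed to 435, 291, 319 and 274 CPM in Aza1 eM3 and 260, 186 and 216 CPM in Aza1 eM2. DMSO libraries had 331 to 397 CPM and those labelled WT 141 and 165 CPM. Of 186 Helitrons tested, 10 were called up and 1 down, against 2.17% and 6.41% of all TEs tested. The number of Helitrons called up was 6 with DESeq2, 1 with the replicate block, and 0 and 1 without Aza1 eM3 replicate 1 and 3. With at least 10 counts in every library it was 0. The 19 TEs called up summed to 134, 53.9, 107 and 71.0 CPM in Aza1 eM3 and 8.53, 16.6 and 10.4 CPM in Aza1 eM2, against 74.5 to 108 CPM in DMSO, 74.8 and 103 CPM in untreated libraries labelled jas-3 and 1.89 and 2.57 CPM in those labelled WT. As with the genes called up, replicates 1 and 3 of Aza1 eM3 were highest. Of the 19, 14 were shorter than 1000 bases, 18 had a mean under 1 CPM in the libraries labelled WT, and 9 had 0 counts in both. The number called up was 7 and 36 without Aza1 eM2 replicate 1 and 2, 1, 3 and 8 without Aza1 eM3 replicate 1, 3 and 4, and 8 with the seed storage share as a covariate.

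The ATREP10A Helitron AT3TE00665 (chromosome 3, 156733 to 156970) had 2333, 726, 1811 and 701 counts in Aza1 eM3 and 105, 250 and 73 in Aza1 eM2 siliques (log2 fold change 3.12, SE 0.55, adjusted p = 0.0043, edgeR). The short HELITRON2 element AT5TE63425 (chromosome 5, 17543094 to 17543257) had 13, 6, 22 and 8 counts in Aza1 eM3 and 0 counts in all 3 Aza1 eM2 libraries, at least 2-fold higher. The ATCOPIA93 element AT4TE10320 (chromosome 4, 2188979 to 2194314), of the family of the mobile retrotransposon EVADE, had 382, 245, 463 and 218 counts in Aza1 eM3 and 44, 30 and 78 in Aza1 eM2 siliques (log2 fold change 2.43, SE 0.39, adjusted p = 0.0025). It had 154 to 234 counts in DMSO, 360 and 349 in untreated libraries labelled jas-3 and 36 and 35 in those labelled WT. A set of 4 TEs called up was under 10 counts in every DMSO library and in both libraries labelled jas-3, with at most 8 counts in those labelled WT, and was thus seen mainly in Aza1 eM3. The most abundant of these was AT2TE05665 (ATREP3), chosen after its values had been seen, with 79, 74, 752 and 582 counts in Aza1 eM3, 0, 2 and 0 in Aza1 eM2 siliques and 0 counts in all 7 control libraries. Its neighbour AT2TE05675 followed the same order, with 20, 20, 151 and 110 counts in Aza1 eM3 and none in Aza1 eM2, so that replicates 3 and 4 were highest there. The other 2, AT2TE10570 and AT2TE10575 (ATHILA4C), had 42, 40, 8 and 8 and 45, 59, 12 and 12 counts in Aza1 eM3 and none in Aza1 eM2, with replicates 1 and 2 highest.

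Counted without a model, the pattern was the same in kind. Of the 19524 TEs, 75 had at least 10 counts in every Aza1 eM2 library and fewer in every Aza1 eM3 library, and 74 of these were below 10 in all 7 control libraries. They comprised 28 Gypsy, 18 En-Spm, 16 MuDR, 9 Copia, 2 LINE, 1 Helitron and 1 unassigned element. The reverse was seen for 21 TEs. Of 27394 genes, 95 had at least 10 counts in every Aza1 eM3 library and fewer in every Aza1 eM2 library, and 60 of these reached 10 counts in all DMSO libraries and those labelled jas-3 while staying below in those labelled WT. The reverse was seen for 18 genes. The minimum of 10 counts was chosen after the data had been seen, and with 5 counts the reverse pattern was seen for 35 TEs.

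The 250 bases upstream of each gene were searched on both strands for the CArG box bound by MADS-domain proteins (CC, 6 bases of A or T, GG). It was found upstream of 3 of the 194 genes called up (1.55%), of none of the 14 called down and of 600 of 22263 genes tested with an annotated start (2.70%). The share among the genes called up was thus not above that of the genes tested, and no promoter of the 12 genes with the smallest adjusted p, of PHE1 or of ADM held a match.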

How the data were processed

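The mRNA of siliques was sequenced by the authors with DNBSEQ, and reads were aligned to TAIR10 with STAR. The deposited values are raw read counts per annotated gene, TE and intergenic region for each library, with no normalization, while the methods of the study credit both steps, counting and normalization, to DESeq2 (109972 features, of which 27394 genes and 31189 TEs). The treatment of reads with several alignments, of strand and of overlapping features is not given in the sources used here. Columns of samples outside the series numbered 0.

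Counts were tested with edgeR 4.0.16 (R 4.3.3), in one fit of all 14 libraries with group as the only factor, filterByExpr by group, TMM scaling, the quasi-likelihood test and Benjamini-Hochberg adjustment over all features tested, genes and TEs separately. TEs used the library sizes and scaling factors of the genes. The fold and p thresholds are those of the study's methods, whereas its results give a fold change of 2 or more. At that lower fold threshold 258 genes were called up and 18 down, with ADM, LEC2 and HDG9 among those called up. On simulated data, 192 of 200 genes (22115 tested) and 133 of 200 TEs (747 tested) with a log2 fold change of 3 were called, with 0 and 1 false calls. The changed features had a minimum mean count, all others had the same mean level in every group, and counts were drawn independently. The simulation thus lacked the excess of even counts and TEs near 0 outside Aza1 eM2. Its false calls do not give the error rate of the calls made here. CPM values were scaled by TMM. A lower bound of a fold sets the lowest scaled library of the higher group against 3 counts per library, which covers counting error only. Of the genes, 26907 were found in the RefSeq annotation of TAIR10.1, which gave product names and sequences, and all overlapped their counterpart.

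The members, lists and tests were chosen with earlier results of these data known. The genes named are all those called down, the 12 called up with the smallest adjusted p, the 8 called up with the largest log2 fold change among those without overlap, 8 genes of the triploid block and JASON, up to 4 called members of each list (8 of the PEG list) or else from the 2 with the smallest adjusted p, and 3 TEs in each direction. Further genes and TEs in the text, such as HDG9, ZOU and AGL80, were named after their values had been seen. The alternatives tried were DESeq2 1.42.0 (Wald test), its size factors, other filters and fold thresholds, the Aza1 libraries alone, the replicate number as a block, each Aza1 library left out, counts divided by 2, the seed storage share as a covariate, and all TEs. Figures and tables were made in Python 3.11.15 with numpy 2.4.6, pandas 2.3.3 and matplotlib 3.10.9, and the permutation test with scipy 1.17.1. Intergenic regions were not analysed here.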

Additional observations from a re-analysis of the deposited data

Results flagged for a closer look

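Among 99 values in the 4 Aza1 eM3 libraries, 7 had 1 library far from the other 3, judged by the gap of that library as a share of the whole range and Dixon's critical value for 4. Chance gives about 1 in 20. In 6 of the 7 the library was Aza1 eM3 replicate 1. AT3G01345 (gap 0.976) had 12.5 CPM there against 5.84, 5.91 and 6.00 CPM in replicates 2, 3 and 4. AT5G36900 (gap 0.833) had 0.220 CPM in replicate 1 against 0.0993, 0.0778 and 0.102 CPM. AT1G20400 (gap 0.863) had 0.308 CPM against 0.174, 0.156 and 0.152 CPM. The summed level of the 14 genes called down (gap 0.982), to which AT3G01345 contributes most, was 14.4 CPM against 7.20, 7.19 and 7.32 CPM. Of the genes called up, AT3G50730 (gap 0.843) had 2.36 CPM in replicate 1 against 1.49, 1.52 and 1.63 CPM, and AT4G23110 (gap 0.915) had 24.0 CPM against 16.2, 16.9 and 16.9 CPM. PR2, a beta-1,3-glucanase gene of the defence response (gap 0.887), was instead highest in replicate 2, with 64.3 CPM against 7.89, 0.816 and 8.0 CPM in replicates 1, 3 and 4.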

How the results depend on the processing

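Under alternatives other than leaving out a library, genes called up numbered 371 with DESeq2, 0 with at least 10 counts in every library, 0 with the Aza1 libraries alone and 58 with the replicate block. Genes called down numbered 28 with DESeq2, 0 with at least 10 counts in every library and 3 with the Aza1 libraries alone. TEs called up numbered 37 without a filter, 1 with at least 10 counts, 11 with the Aza1 libraries alone, 3 with the replicate block, 34 with counts divided by 2, 8 with the covariate and 113 with all TEs. TEs called down numbered 257 without a filter, 0 with at least 10 counts, 26 with the replicate block and 90 with all TEs. The filter of 10 counts in every library kept 17 of the 194 genes called up, none of the 14 called down and none of the 56 TEs called down, and at an unadjusted p under 0.05, 2220 of its 18488 genes and 18 of its 142 TEs passed. Leaving out 1 library gave 3 to 250 genes called up, 9 to 13 called down, 1 to 36 TEs called up and 18 to 180 called down. The cause of these changes was not tested. Same-numbered libraries of the generations did not deviate together (correlations −0.19, −0.18 and −0.20), so the numbers do not pair them, and the replicate block is given as an alternative alone. Of 48 named genes and TEs that were called, all kept their direction, with 542 values keeping and 186 losing the call. Of 34 not called, 11 values gained the call, and 2 genes changed sign around 0, MUM2 (0.04) to −0.013 with the replicate block, −0.041 with the covariate and −0.07 to 0.117 when 1 library was left out, and RBCS1A (0.07) to −0.07 with the covariate and −0.039 to 0.14 when 1 library was left out. Minimum counts of 5 or 20 in place of 10, chosen after seeing the data, gave 76 or 55 TEs that reached it in every Aza1 eM2 library and in no Aza1 eM3 library.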

Other observations

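Genes of the defence response, which belong to no comparison above, varied among the Aza1 eM3 libraries in an order of their own. PR5 had 236, 907, 53 and 165 counts in Aza1 eM3 and 36, 42 and 24 in Aza1 eM2 siliques (log2 fold change 3.24, adjusted p = 0.097, edgeR), and PR2 had 358, 2588, 42 and 315 counts in Aza1 eM3 and 48, 44 and 22 in Aza1 eM2 siliques (log2 fold change 4.37, adjusted p = 0.089). PR1 had 10, 38, 0 and 1 counts in Aza1 eM3 and 0, 0 and 2 in Aza1 eM2 siliques. All 3 were highest in replicate 2, where the summed Gypsy level was also highest among Aza1 eM3 libraries (154 CPM against 62.3 to 81.1 CPM), and whether these go together was not tested. HSP70 had 2585 to 3150 counts in Aza1 eM3 and 3849 to 4713 counts in Aza1 eM2 (log2 fold change −0.66, adjusted p = 0.11).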
